A study of Mus musculus with 4 samples.

Results

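Aminoacyl-tRNA synthetases are the enzymes that load each amino acid onto its transfer RNA. The gene set followed here is a list of names, with no measured value in its rule: 20 genes of cytosolic enzymes and 14 genes of mitochondrial enzymes, written with the suffix 2. All 34 had a probe that passed the filter on dim signals, out of 18454 genes tested. RNA came from spermatogonial stem cells, the germ cells from which sperm production is renewed, of C57/BL6 x DBA/2 F1 mice at day 5, and the design asks which genes depend on the growth factor FGF2. Both groups were grown in serum-free medium based on MEMa with 40 ng/ml GDNF. Control cells kept 5 ng/ml FGF2 in the normal medium, while the -F+S cells received medium without FGF2 and with SU5402, an inhibitor of the FGF receptor tyrosine kinase, for 12 h. The time is stated for the -F+S cells alone, and the sources used here do not mention feeder cells.

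Each synthetase recognises 1 amino acid and activates it with ATP before joining it to the matching tRNA. Without a charged tRNA the ribosome stalls at the codons of that amino acid, and uncharged tRNA activates the kinase GCN2 (Eif2ak4), which leads to synthesis of the transcription factor ATF4. Mitochondria translate their own few messages with a separate set of nuclear-encoded enzymes. Most amino acids therefore have a cytosolic and a mitochondrial enzyme from different genes. Kars and Gars are exceptions whose products serve both compartments, and Eprs joins the glutamyl and prolyl enzymes in 1 protein. Several cytosolic enzymes are held in the multisynthetase complex by scaffold proteins.

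The 4 arrays were 2-colour arrays, each with 1 -F+S culture in the green channel and 1 normal culture in the red channel, and the design text calls the 4 samples of each group biological replicates. Dyes were not swapped, so a dye effect of single probes cannot be told apart from the treatment. Well above background were 26613 to 28496 of the 41174 probes in the green channels and 25533 to 27891 in the red ones. Per gene the value given is the log2 ratio of -F+S over normal culture after loess normalization, so it is measured against the trend of all probes on that array. The median over all 18454 genes was 0.02. A gene is called where the adjusted p of limma is under 0.05, with Benjamini-Hochberg adjustment over all genes. Among cell type markers, 13 of 14 germ cell genes had a kept probe (all but Zbtb16), and all 13 were well above background on every control array.

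Most synthetase genes fell after FGF2 withdrawal with SU5402. Of the 34 genes, limma called 21 lower and 3 higher, and 10 did not pass the threshold. Across all genes, 30.9% were called lower and 37.5% higher, 68.4% in all. The median log2 ratio of the 34 genes was -0.30, and the values ran from -1.11 for Sars2 to 0.82 for Nars. The median was below 0 on each array, at -0.27, -0.38, -0.41 and -0.22 for replicates 1 to 4. In 25 of the 34 genes the ratio had the same sign on all 4 arrays. The treated and control levels did not overlap in 23 genes: treated levels were lower in 20 and higher in 3, where 27.1% of all genes were lower and 34.1% higher without overlap. Only Sars2 and Mars were called and at least 2-fold lower, as were 1.66% of all genes (306 of 18454). No member was called at least 2-fold higher, where 2151 of the 18454 genes were. With the scanner software's own LogRatio the median over all genes moved from 0.02 to -0.12, and 5598 genes were called higher and 7854 lower in place of 6924 and 5705. On that scale 13 cytosolic and 12 mitochondrial synthetase genes were called lower and 1 of each higher. In these bulk samples, fewer cells of a type and less RNA per cell cannot be told apart.

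**Figure D1:**
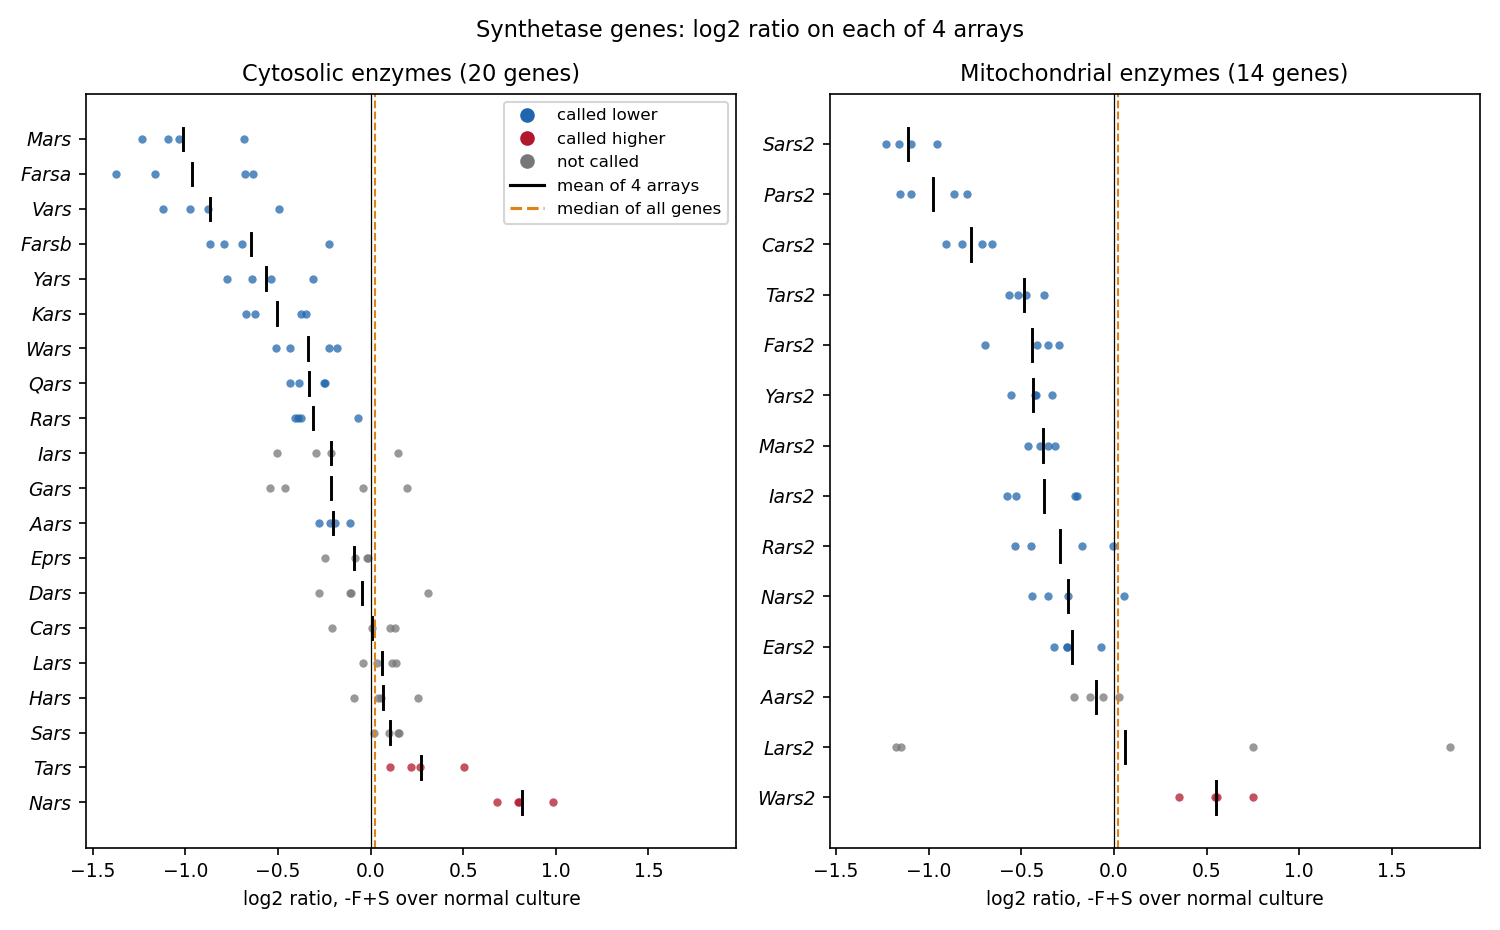
Log2 ratio of -F+S over normal culture for the 20 cytosolic and the 14 mitochondrial synthetase genes; each point is 1 of 4 arrays, the bar is their mean, the colour gives the limma call and the dashed line is the median of all genes (0.02). Blue genes called lower lie in the upper part of both panels, 10 of 20 on the left and 11 of 14 on the right, and the points of Lars2 lie on both sides of 0. On the left, Iars and Gars, which were not called, stand above Aars, which was.

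Markers of other cell types moved between the same samples, and their part in the synthetase results was not tested. The median log2 ratio of the germ cell and spermatogonial genes was -0.33, and 8 of 13 were called lower and 1 higher. Their mean log2 level was 12.56 to 12.62 in treated cells and 12.88 to 12.96 in control cells. All 10 Sertoli genes were higher, with a median of 2.26, and their mean level was 13.04 to 13.09 in treated and 10.83 to 11.03 in control cells. In the fibroblast and feeder list, 10 of 11 genes were higher, with a median of 1.62 and mean levels of 16.58 to 16.66 against 15.02 to 15.13. Of the 10 leukocyte genes, 9 were lower, with a median of -0.88 and mean levels of 10.08 to 10.14 against 10.99 to 11.07. In the controls, 8 of the 10 Sertoli genes and all genes kept in the other lists were well above background on all 4 arrays. The germ cell genes thus had a median close in size to that of the synthetases, while the other lists moved further.

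Among cytosolic enzymes, those for methionine, phenylalanine and valine fell most. Mars, the methionyl enzyme, which charges both the initiator and the elongator tRNA, had log2 channel levels of 15.05, 15.01, 14.94 and 14.86 in control cells and 13.96, 13.78, 13.90 and 14.17 in treated cells. The groups did not overlap, and the treated level was lower on every array. This was a 2.02-fold fall (log2 -1.01, SE 0.093, n = 4, limma adjusted p = 1.14e-05). Vars, the valyl enzyme, had control levels of 14.77, 14.68, 15.40 and 14.95 and treated levels of 13.89, 14.18, 14.27 and 13.98. The control sample of replicate 3 was the highest, and the groups again did not overlap. Vars was 1.83-fold lower, with a log2 ratio of -0.87 (SE 0.10) and a limma adjusted p of 5.2e-05.

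Farsa and Farsb encode the alpha and beta subunits of the cytosolic phenylalanyl enzyme, which works as a tetramer of both, and both genes fell. Farsa had control levels of 14.71, 14.73, 15.13 and 14.72 and treated levels of 13.34, 14.10, 13.96 and 14.04. The treated sample of replicate 1 was the lowest, and Farsa was 1.95-fold lower, with a log2 ratio of -0.96 (SE 0.12) and a limma adjusted p of 9.89e-05. Farsb had log2 ratios of -0.69, -0.79, -0.87 and -0.23, so its fall was smallest on the array of replicate 4. Its mean was -0.64 (SE 0.11, limma adjusted p = 0.000479).

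The probes that reported these falls can be read as pieces of the messages. The following probes cross a splice junction, so their 60 bases match spliced mRNA and not an unbroken stretch of the genome, and each is open in a single reading frame. They are given 5′ to 3′ in the sense of the gene. The genome span of each, in mm9, covers the intron.
Mars, dimmer probe, chr10:126736485-126737031, minus strand: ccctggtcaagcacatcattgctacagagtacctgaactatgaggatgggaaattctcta
Vars, chr17:35151675-35151893, plus strand: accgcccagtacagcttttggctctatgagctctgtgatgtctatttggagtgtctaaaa
Farsa, dimmer probe, chr8:87391534-87391694, plus strand: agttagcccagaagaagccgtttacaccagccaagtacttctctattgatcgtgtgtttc
Farsb, chr1:78459851-78463543, minus strand: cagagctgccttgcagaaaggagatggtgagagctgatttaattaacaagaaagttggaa
The Mars probe shown gave log2 ratios of -1.14, -0.99, -1.34 and -0.80, beside -1.09, -1.24, -1.04 and -0.69 for the brightest Mars probe at chr10:126733940-126733999. The Farsa probe shown gave ratios between -1.36 and -0.63, beside -1.38, -0.64, -1.17 and -0.68 for the brightest one at chr8:87392888-87392947. A further Farsa probe, to a cDNA clone, gave -0.03, -0.07, -0.17 and -0.22 and was not called (mean -0.12). This clone probe was dim, at a mean log2 level of 8.07 against 14.35 for the brightest Farsa probe. The RefSeq mRNA probes of Farsa gave ratios near each other, and the dim clone probe did not.

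Further falls among the cytosolic enzymes were smaller. Yars, the tyrosyl enzyme, had log2 ratios of -0.54, -0.64, -0.77 and -0.31 and a mean of -0.56. Kars, the lysyl enzyme shared by both compartments, had -0.68, -0.35, -0.63 and -0.37 and a mean of -0.51. These genes were 1.48-fold and 1.42-fold lower, with limma adjusted p-values of 0.000304 and 0.00041. The tryptophanyl, glutaminyl and arginyl enzymes followed: Wars had a mean log2 ratio of -0.34, Qars of -0.33 and Rars of -0.31, with limma adjusted p-values of 0.00431, 0.00243 and 0.00685. When arrays were median-centred without loess, Wars and Rars lost their calls (limma adjusted p = 0.157 and 0.257), and Qars did with median-centred processed signals (limma adjusted p = 0.065). Rars lay between -0.37 and -0.41 on the arrays of replicates 1 to 3 and at -0.07 on that of replicate 4. Aars, the alanyl enzyme, fell least, with log2 ratios of -0.11, -0.20, -0.28 and -0.22 (mean -0.20, limma adjusted p = 0.0244). The call of Aars was lost without replicate 2, 3 or 4, with adjusted p-values of 0.0746, 0.0756 and 0.0538. It was also lost with median-centred processed signals (limma adjusted p = 0.152), with the trend on base composition removed (log2 -0.09) and with the mean of all kept probes (log2 -0.03).

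Nars and Tars were the cytosolic genes that rose. Nars, the asparaginyl enzyme, had control levels of 12.86, 12.75, 12.69 and 12.67 and treated levels of 13.54, 13.55, 13.49 and 13.65. Samples of a group lay close together and far from the other group. Nars was 1.76-fold higher (log2 0.82, SE 0.074, limma adjusted p = 9.9e-06). Tars, the threonyl enzyme, had control levels of 15.21, 15.17, 14.90 and 15.17 and treated levels of 15.32, 15.39, 15.41 and 15.44. The lowest treated level was above the highest control level, and the rise was 1.21-fold (log2 0.27, SE 0.081, limma adjusted p = 0.0136). The call of Tars was lost without replicate 3 (log2 0.20, limma adjusted p = 0.0577) and when arrays were median-centred without loess (log2 0.05). It was also lost with the scanner LogRatio (log2 0.13), median-centred processed signals (log2 0.18) and the mean of all kept probes (log2 0.09), and the second probe had a log2 ratio of -0.09.

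The 8 other cytosolic genes did not pass the threshold. Sars, Hars, Lars and Cars, the seryl, histidyl, leucyl and cysteinyl enzymes, had mean log2 ratios of 0.10, 0.07, 0.06 and 0.01, and all 4 values were below 0 when arrays were median-centred without loess. Dars and Eprs had means of -0.05 and -0.09. In Eprs the treated and control levels did not overlap although the mean difference was small, with a limma adjusted p of 0.287. Gars and Iars, the glycyl and isoleucyl enzymes, had means of -0.21 and -0.22 with the sign turned on the array of replicate 4: Gars had log2 ratios of -0.55, -0.46, -0.04 and 0.19, and Iars of -0.21, -0.51, -0.29 and 0.15. Their limma adjusted p-values were 0.143 and 0.0868. Without replicate 4 both were called lower, Gars at -0.35 (limma adjusted p = 0.0235) and Iars at -0.34 (limma adjusted p = 0.00949).

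**Figure D2:**
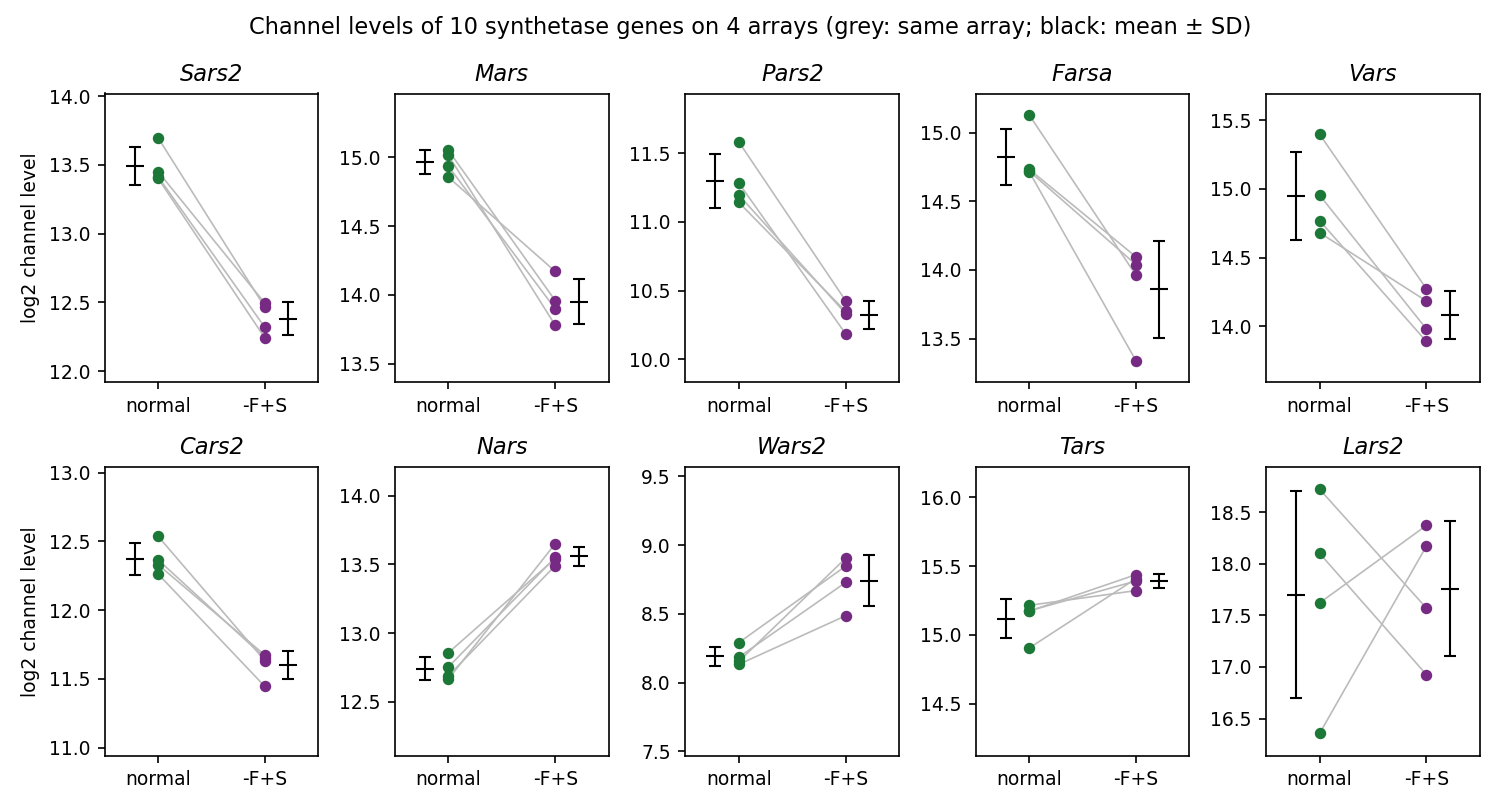
Log2 channel level of 10 synthetase genes in normal culture (green) and -F+S (purple) on 4 arrays; grey lines join the samples of an array, black marks give the mean ± SD, and each panel has its own axis because levels of different probes cannot be compared. In Sars2, Mars, Pars2, Farsa, Vars and Cars2 every line falls, in Nars, Wars2 and Tars every line rises, and in Lars2 the lines cross.

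Of the 14 mitochondrial genes, 11 were called lower and 1 higher, and their median was -0.38 on the log2 scale. The 20 cytosolic genes had a median of -0.21, and 10 of them were lower and 2 higher. The medians of the mitochondrial genes were -0.39, -0.39, -0.55 and -0.32 on the arrays of replicates 1 to 4, and those of the cytosolic genes were -0.23, -0.37, -0.29 and -0.08. The mitochondrial median was lower on all 4 arrays, by little on that of replicate 2, and no test was made over members. With second brightest probes, which 13 cytosolic and 6 mitochondrial genes have, the order turned, with medians of -0.41 and -0.30. Without replicate 4 the cytosolic median moved from -0.21 to -0.34, a value not to be set beside the mitochondrial median over 4 arrays. When arrays were median-centred without loess, 6 mitochondrial genes were called lower in place of 11. Over all genes the number called lower in that setting was 3575 in place of 5705. Both medians were below 0 under each of the normalizations tried.

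Sars2, the mitochondrial seryl enzyme, had the largest fall of all 34 genes. Its control levels were 13.41, 13.40, 13.70 and 13.45 and its treated levels 12.32, 12.24, 12.47 and 12.49. Every treated sample was far below every control sample, and Sars2 was 2.16-fold lower (log2 -1.11, SE 0.073, n = 4, limma adjusted p = 1.1e-06). Pars2, the prolyl enzyme, had control levels of 11.19, 11.28, 11.58 and 11.14 and treated levels of 10.33, 10.19, 10.43 and 10.35. It was 1.97-fold lower, with a log2 ratio of -0.98 (SE 0.082) and a limma adjusted p of 6.18e-06. Cars2, the cysteinyl enzyme, had control levels of 12.37, 12.33, 12.54 and 12.26 and treated levels of 11.65, 11.67, 11.63 and 11.45. The groups did not overlap in Pars2 or Cars2, and Cars2 was 1.71-fold lower, with a log2 ratio of -0.77 (SE 0.072) and a limma adjusted p of 1.2e-05. The probes of Sars2, Pars2 and Cars2 lie at chr7:29538621-29538680, chr4:106327345-106327404 and chr8:11516152-11516211 (mm9).

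Another 5 mitochondrial enzymes fell by a middling amount. Tars2 had log2 ratios of -0.48, -0.38, -0.56 and -0.52 and a mean of -0.48 (SE 0.068, limma adjusted p = 0.000193). Fars2 and Yars2, the phenylalanyl and tyrosyl enzymes, both had a mean of -0.44. Mars2, the methionyl enzyme, varied least among these, with -0.36, -0.40, -0.32 and -0.46 and a mean of -0.38. Iars2 had -0.53, -0.21, -0.58 and -0.20 and a mean of -0.38. Limma adjusted p-values for Fars2, Yars2, Mars2 and Iars2 were 0.00108, 0.000421, 0.000718 and 0.0038. Fars2 and Mars2 lost their calls when arrays were median-centred without loess (limma adjusted p = 0.0679 and 0.104). Iars2 lost its call with the mean of all kept probes, and its second probe, a dim one to a cDNA clone, had a log2 ratio of 0.23.

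The smallest mitochondrial falls that were called were in Rars2 (log2 -0.29), Nars2 (log2 -0.25) and Ears2 (log2 -0.22), with limma adjusted p-values of 0.0224, 0.0331 and 0.0196. In Rars2 and Nars2 treated and control levels overlapped, and all 3 calls were lost on leaving out some single arrays. Limma adjusted p-values were 0.0671 and 0.0698 for Ears2 without replicate 1 or 3, and 0.0995 and 0.103 for Rars2 without replicate 2 or 3. For Nars2 they were 0.0816, 0.152 and 0.114 without replicate 1, 2 or 3. All 3 calls were also lost when arrays were median-centred without loess, and that of Ears2 with the trend on base composition removed. Aars2 had a mean log2 ratio of -0.09 and was not called (limma adjusted p = 0.26).

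Wars2, the tryptophanyl enzyme, was the mitochondrial gene that rose. Its control levels were 8.19, 8.29, 8.13 and 8.15 and its treated levels 8.73, 8.85, 8.49 and 8.90. Levels of this dim probe were well above background in both channels of all 4 arrays and did not overlap between groups. Wars2 was 1.47-fold higher (log2 0.55, SE 0.080, limma adjusted p = 0.000221), and its second probe had a log2 ratio of 0.86. The brightest probe lies at chr3:99020906-99020965 (mm9).

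Lars2, the mitochondrial leucyl enzyme, spread more than any other member. Its control levels were 17.62, 16.36, 18.72 and 18.10 and its treated levels 18.37, 18.17, 17.57 and 16.93. The log2 ratio was 0.75 and 1.82 on the arrays of replicates 1 and 2 and -1.15 and -1.18 on those of replicates 3 and 4, an SD of 1.5 where the median SD over genes was 0.15. No spot was saturated. The probe ranked 37 in brightness among the 41174 probes, and whether it detects other RNA was not tested. Without Lars2 the median of the mitochondrial genes stayed at -0.38. The mean log2 ratio of 0.06 was not called (SE 0.43, limma adjusted p = 0.909), and it was 0.41 with a call from median-centred processed signals and -0.54 without one from median centring in place of loess.

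Enzymes for the same amino acid were set against each other within each array, in 15 pairs of a cytosolic and a mitochondrial gene. The difference in log2 ratio, cytosolic minus mitochondrial, was above 0 on all 4 arrays in 6 pairs, below 0 on all 4 in 4 pairs and mixed in 5. With 4 arrays the exact sign-flip permutation test, two-sided, cannot go below p = 0.125, and the smallest adjusted p over the 15 pairs was 0.188, so no pair could pass the threshold.

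The seryl pair lay furthest apart. Sars exceeded Sars2 by 1.25, 1.26, 1.38 and 0.97 on the 4 arrays, a mean of 1.22 (SD 0.17). Eprs exceeded Pars2 by 0.89 on average (SD 0.14), Cars exceeded Cars2 by 0.78 (SD 0.060), and Eprs exceeded Ears2 by 0.13 (SD 0.087). In these 4 pairs the mitochondrial gene was called lower and the cytosolic one was not called.

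In 3 pairs the genes had calls in opposite directions. Nars rose and Nars2 fell, a difference of 0.94, 1.24, 1.16 and 0.93 (mean 1.07, SD 0.16). Tars rose and Tars2 fell, with a mean difference of 0.76 (SD 0.23). The tryptophanyl pair went the other way: Wars had log2 ratios of -0.22, -0.44, -0.51 and -0.18 and Wars2 of 0.54, 0.56, 0.35 and 0.75, a mean difference of -0.89 (SD 0.096). The calls of Nars, Tars2 and Wars2 held in every setting run. Calls held in 15 of 16 settings for Wars, 10 of 16 for Tars and 10 of 15 for Nars2, the main one included. In the methionyl pair both genes fell and Mars fell further, by a mean difference of -0.63 (SD 0.28). The same held for Farsa against Fars2 (mean -0.52, SD 0.30). The arginyl, tyrosyl and isoleucyl pairs, and Farsb against Fars2, had mixed signs and means between -0.20 and 0.16.

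**Figure D3:**
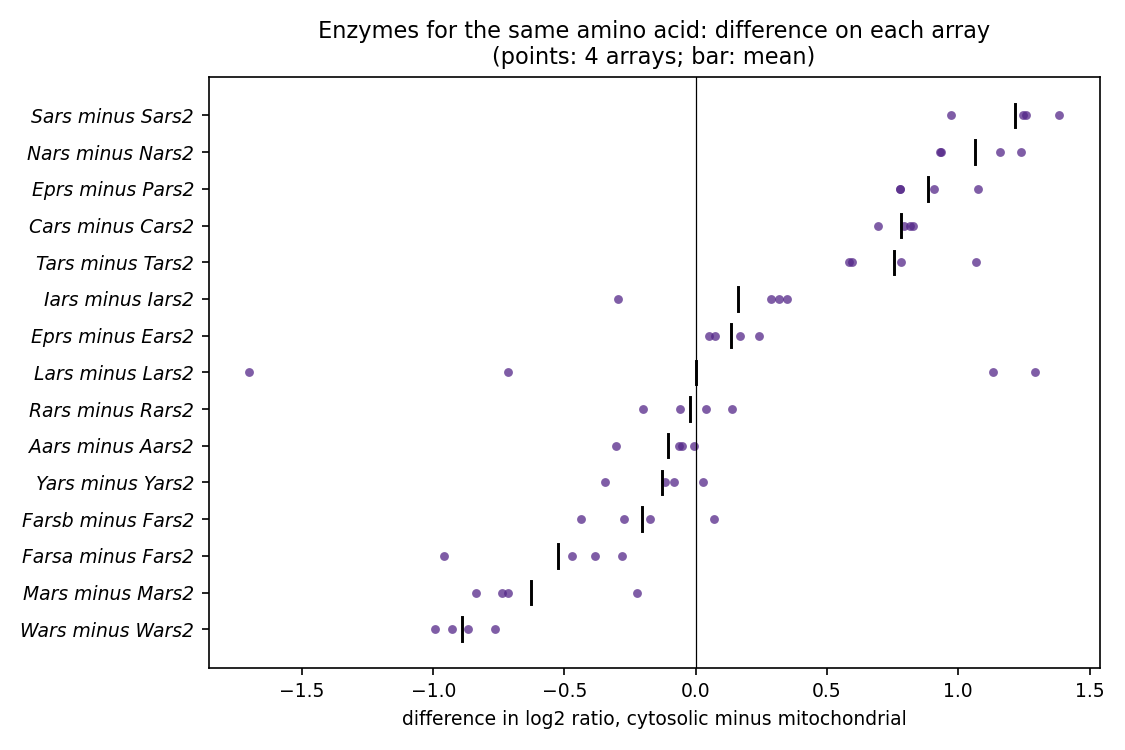
Difference in log2 ratio between the cytosolic and the mitochondrial enzyme for the same amino acid, 15 pairs, with 1 point for each of 4 arrays and a bar at the mean. The points of Sars minus Sars2 and Nars minus Nars2 lie to the far right of 0, those of Wars minus Wars2 to the far left, and Lars minus Lars2 spans the whole axis with a mean of 0.0014.

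Synthetases fall into 2 structural classes with unrelated catalytic folds. Eprs was counted in class I alone, although its product also holds the prolyl enzyme. Pars2, the mitochondrial prolyl enzyme, was counted in class II. The 18 class I genes had a median log2 ratio of -0.32, with 12 lower and 1 higher. The median of the 16 class II genes was -0.23, with 9 lower and 2 higher. Class I thus had 66.7% lower and 5.6% higher, and class II 56.25% lower and 12.5% higher. For these and the counts below, 30.9% of all genes were lower and 37.5% higher. Both higher cytosolic genes, Nars and Tars, are class II enzymes. Among the 8 enzymes of the multisynthetase complex, Kars, Mars, Qars and Rars were lower, none was higher, and the median was -0.26. The 12 cytosolic enzymes outside the complex had 6 lower and 2 higher calls and a median of -0.21. Of the 3 scaffold proteins of the complex, Aimp2 was lower (log2 -0.29, limma adjusted p = 0.00529), and Aimp1 (log2 0.23) and Eef1e1 (log2 -0.15) were not called. Vars2, a mitochondrial enzyme gene outside the set, was lower by a log2 ratio of -0.22 (limma adjusted p = 0.0185).

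Many cytosolic synthetase genes are known targets of ATF4, the factor of the amino acid response. Of 12 cytosolic enzymes listed as responding to ATF4, Nars and Tars were higher, Aars, Mars, Wars and Yars were lower and 6 were not called, with a median of -0.15. The 8 other cytosolic enzymes had 6 lower calls and no higher call, with a median of -0.42. Outside the synthetases, Atf4 itself rose, with log2 ratios of 0.73, 0.75, 0.62 and 0.71 (mean 0.70, limma adjusted p = 1.4e-05). Of 29 other genes of the amino acid response, Atf4 included, 14 were higher, 9 lower and 6 not called, with a median of 0.16. The transcription factor gene Atf5 (log2 1.60), the secreted stanniocalcin Stc2 (log2 1.46), the stress protein gene Nupr1 (log2 1.29) and the lipoprotein receptor Vldlr (log2 1.35) led the rises. Slc7a5 and Slc3a2, which together form an importer of large neutral amino acids, were 2.15-fold and 1.56-fold lower. The cystine transporter gene Slc7a11 fell by 0.61 and the serine hydroxymethyltransferase gene Shmt2 by 0.47 on the log2 scale. The Slc7a11 probe was dim, with mean levels of 6.93 in treated and 7.54 in control cells. It was well above background in only 1 treated and 3 control channels. Asns, which makes asparagine, the amino acid that Nars loads, was not called (log2 -0.03, limma adjusted p = 0.72). In this list 31.0% of genes were lower and 48.3% higher, and of the synthetases listed with ATF4 33.3% were lower and 16.7% higher. Both shares of lower genes were near the 30.9% of all genes. Of all genes 37.5% were higher, so the share of higher genes was above that in the first list and below it in the synthetases.

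Promoters were read for the letters of the ATF4 response element, since the synthetases so listed did not move together. RefSeq promoters (GRCm38.p6, 250 bases before to 50 after the start) were given for 26 of the 34 genes, and those of Cars, Hars, Lars, Nars, Rars, Vars, Wars and Pars2 were not analysed here. The core TGATGCAA, on either strand, stood in 4 of 13 cytosolic genes and 0 of 13 mitochondrial genes, against 1.03% of 27025 genes. The windows below give the gene strand, 5′ to 3′, with the match in capitals, for 3 of the 4 genes; in Iars and Tars it reads as the reverse complement.
Yars, chr4:129189895-129189924, plus strand: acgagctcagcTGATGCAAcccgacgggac
Iars, chr13:49682126-49682155, plus strand: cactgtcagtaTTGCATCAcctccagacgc
Tars, chr15:11399655-11399684, minus strand: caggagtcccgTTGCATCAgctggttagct
The first base of the match lay 15 bases before the start in Tars, 3 after it in Yars and 7 after it in Iars. These genes shared the letters but not the sign in the main fit: the log2 ratio was -0.56 in Yars, -0.20 in Aars, -0.22 in Iars without a call, and 0.27 in Tars. The calls of Aars and Tars each held in 10 of 16 settings. Second probes gave -0.25 in Aars, -0.55 in Iars and -0.09 in Tars. The looser form TGATGNAA, which contains the core, was found in 5 of 13 cytosolic genes, adding Gars, in 0 of 13 mitochondrial genes and in 4.51% of all genes.

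The E-box CACGTG, a palindrome bound by MYC and related factors, stood in 4 of 13 cytosolic genes (Aars, Farsb, Iars and Tars) and in 1 of 13 mitochondrial genes (Ears2), against 8.09% of all genes. It does not overlap the other motif. The E-box of Farsb is given in capitals, as that of the gene with the largest fall among these.
Farsb, chr1:78488919-78488948, minus strand: ttagacaggcatCACGTGagacagcccaag
The E-box began 69 bases before the start in Iars and 39 in Farsb, and 19 and 21 bases after it in Tars and Ears2. Of the 5 genes with an E-box, Farsb, Aars and Ears2 were lower, Tars was higher and Iars was not called. A match of letters describes the sequence and is no evidence of binding.

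Several probes to a gene gave a second reading for 19 members. The set had 69 probes, of which 64 passed the filter. Of 55 kept probes to RefSeq mRNAs, 34 were lower and 4 higher in a limma fit over all kept probes, in which 29.1% of probes were lower. The share of higher probes was not taken in that fit, and in the fit over genes 37.5% were higher. Sars2 and Pars2, among the largest falls, and Nars, the largest rise, had 1 probe each and so no second reading. Second probes of Mars, Vars and Farsa gave values of like size, with log2 ratios of -1.07, -0.83 and -0.73. The second probe of Cars2 gave -0.38 beside -0.77. For Iars, Wars and Qars the second probes gave larger falls, of -0.55, -0.59 and -0.60.

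Aars and Dars had probes called in both directions. The RefSeq mRNA probes of Aars gave -0.20 and -0.25 and a dim probe to a cDNA clone gave 0.36. In Dars the brightest probe gave -0.05 and was not called, other RefSeq mRNA probes gave -0.41 and -0.34, and a cDNA clone probe gave 0.37. The Dars probes at -0.34 and 0.37 were dim, at mean log2 levels of 7.52 and 7.98. Among the kept Dars probes the brightest lies furthest 3′ and the junction probe at -0.41 furthest 5′. Log2 ratios were -0.28, -0.11, -0.11 and 0.31 for the 3′ probe and -0.60, -0.61, -0.43 and -0.01 for the 5′ probe. The 5′ probe was lower on every array, and it was called lower while the 3′ probe was not.

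**Figure D4:**
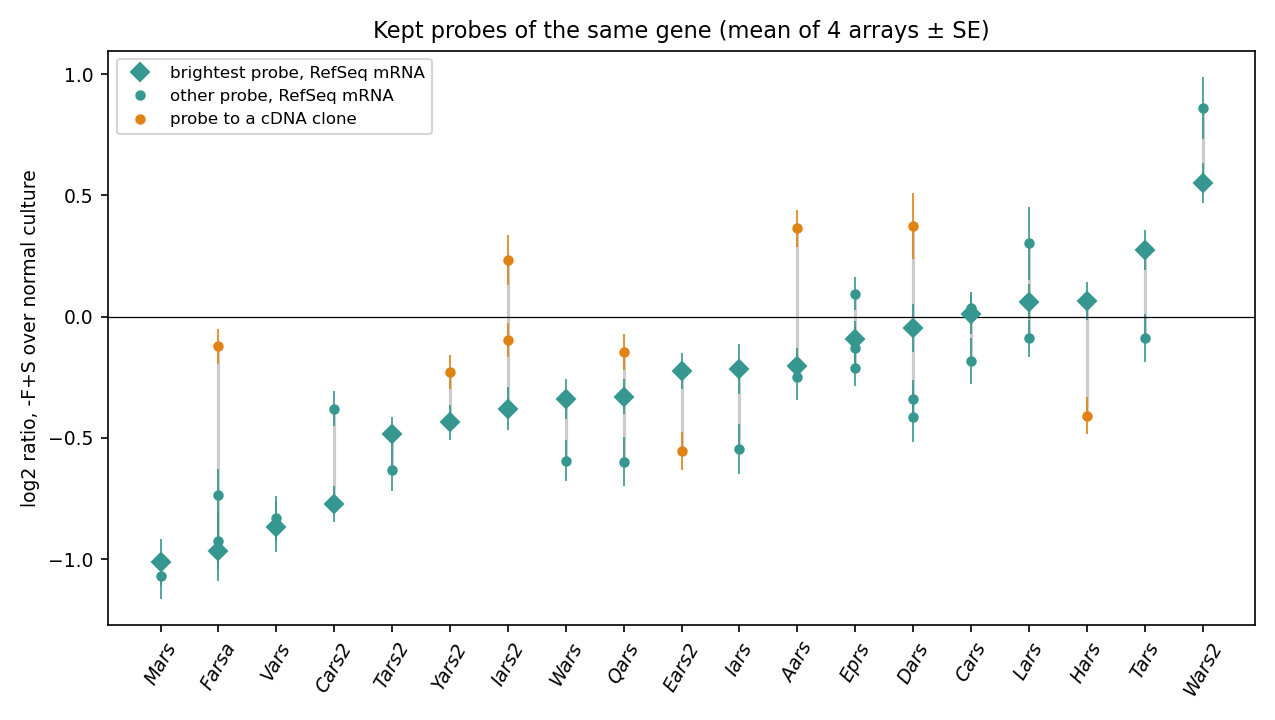
Mean log2 ratio ± SE over 4 arrays of every kept probe for the 19 synthetase genes with more than 1; diamonds mark the brightest probe, circles the others, and orange the probes to cDNA clones. Probes of Mars and Vars lie together near -1, while those of Dars, Aars, Hars and Iars2 reach both sides of 0 through an orange probe. Those of Cars, Eprs, Lars and Tars also lie on both sides of 0, without an orange probe.

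Genes that act beside the synthetases showed a mix of falls and rises. Mitochondria make glutaminyl-tRNA indirectly: Ears2 loads glutamate and an amidotransferase of Qrsl1, Gatb and Gatc converts it. All of these genes were lower, with log2 ratios of -0.73 for Qrsl1, -0.62 for Gatb and -0.39 for Gatc and limma adjusted p-values of 2.96e-05, 4.7e-05 and 0.000704. They belong to a list of 13 genes of mitochondrial translation, of which 5 were lower, 1 was higher and 7 were not called, with a median of -0.13. That is 38.5% lower and 7.7% higher, beside 30.9% and 37.5% of all genes. The elongation factor gene Tufm (log2 -0.27) was among the lower genes, and the release factor gene Mtrf1 (log2 0.30) was the higher one. In cytosolic elongation, 3 of 6 genes were lower: Eef1d (log2 -0.43), Eef1g (log2 -0.52) and Eef1a1 (log2 -0.36), while Eef2k, the kinase that inhibits elongation factor 2, was higher (log2 0.31).

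Among 36 genes of tRNA maturation, editing and export the median log2 ratio was -0.20, and 18 were called lower and 4 higher. Pop1 and Pop5, subunits of the enzyme that trims the 5′ end of tRNA, were lower by log2 ratios of -0.79 and -0.84, the methyltransferase subunit gene Trmt61a by -0.82 and Sepsecs, which makes selenocysteinyl-tRNA, by -0.78. The splicing endonuclease subunit gene Tsen15 (log2 0.48), Prorsd1 (log2 0.40), the tRNA-modifying enzyme gene Cdkal1 (log2 0.40) and the kinase gene Pstk (log2 0.29) were higher. Of 12 measured genes around eIF2, 6 were lower and 2 higher, and Eif2b3 had no kept probe. The kinase genes Eif2ak1 (log2 -0.50) and Eif2ak2 (log2 0.68) went opposite ways, and Eif2s1, a subunit of eIF2 itself, was higher (log2 0.27). Eif2b5 and Eif2b1, of its exchange factor, and the phosphatase subunit gene Ppp1r15a were lower, with log2 ratios of -0.46, -0.30 and -0.40. Eif2ak4, the sensor of uncharged tRNA, was not called (log2 0.17, limma adjusted p = 0.138).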

How the data were processed

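Data came from 4 arrays with 2 colours, each with a -F+S sample (Cy3, green) and a normal sample (Cy5, red). The authors deposited spot signals as linear intensity values. Their scanner software was Agilent Feature Extraction 10.5.1.1, per the submitters' processing notes. Per the file headers, processed signals had background subtracted and dyes normalized, and LogRatio is red over green as log10. The authors' deposited series matrix, of unstated scale, matched uncentred log2 ratios of processed green over processed red signal at 100% of 41174 probes (tolerance 0.001; column medians -0.26, 0.011, 0.11 and -0.058).

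Mean spot signals and median local backgrounds went through normexp (offset 50) and then loess within each array. Control spots had weight 0, and 141 to 171 outlier spots per array were left out. A probe was kept if 3 or more of 4 arrays had it well above background in a common channel (27730 probes), and a gene took its brightest kept probe. RefSeq gave current names for 15608 of 18454 genes. The log2 ratio was tested against 0 with lmFit and eBayes (limma 3.58.1, R 4.3.3, data.table in version 1.17.8), which was first tested on simulated data with 200 changed genes. The array is the block that pairs both samples, since they share a hybridisation. Channel levels are log2 values after loess and Aquantile. All 4 arrays lay on 1 slide in 1 scan, and between arrays the Pearson r across genes was 0.907 to 0.948. The number of arrays limits the precision, with a median SD between arrays of 0.15.

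The members and lists were chosen with earlier results of these data known. Each member is named. Those given with levels and full statistics are the 6 largest falls and up to 6 largest rises with the same sign on all arrays, and of other lists up to 4 called genes per direction, by adjusted p. Of genes outside this rule, Atf4, Asns and Eif2ak4 were named for their role, and the levels of Lars2 are given for their spread, after its values were seen. Motifs were searched on both strands of RefSeq promoters. The 15 alternatives covered normalization, background, signal, base composition, filter, probe choice, pairing and leaving out each array. A gene of the lists and some sequences are not reported here.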

Additional observations from a re-analysis of the deposited data

Results flagged for a closer look

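Rars stood out on a single array. Its log2 ratio was -0.066 on the array of replicate 4, while the other arrays lay between -0.37 and -0.41, so that gap made up most of the range. Chance alone gives such a gap in about 1 of 20 groups of 4, and 34 genes were examined.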

How the results depend on the processing

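Of 24 called members, 13 kept their call and direction in every alternative run, and 11 did not. Of 495 recomputed member values, 428 kept both, 29 lost the call, 14 gained one and 24 changed sign; the causes were not tested. Without the replicate block, which drops the pairing of both samples of an array, Nars2 lost its call (log2 -0.25, limma adjusted p = 0.0578), and no other member's call changed. Counts over all genes also moved in some settings. The member counts below cannot be set against the 37.5% higher and 30.9% lower of the main fit. With median centring in place of loess, 1 cytosolic gene was higher, 6 mitochondrial genes and 3575 of all genes were lower, and log2 ratios were -0.037 for Cars, -0.052 for Hars, -0.16 for Lars, -0.19 for Sars and -0.54 for Lars2. In that setting the pair differences were -0.054 for Iars and Iars2, 0.032 for Rars and Rars2 and -0.081 for Eprs and Ears2. With the scanner LogRatio, 1 cytosolic gene was higher, the mitochondrial median was -0.56, and values were -0.17 for Cars, -0.11 for Hars and -0.053 for Lars. With median-centred processed signals, 1 cytosolic and 2 mitochondrial genes were higher, the mitochondrial median was -0.51, and values were -0.12 for Cars, -0.065 for Hars and -0.0036 for Lars. In both of these settings the pair differences were 0.0014 for Aars and Aars2 and -0.42 for Lars and Lars2. The latter was -0.0027 with no background correction and -0.071 with the trend on base composition removed, where 4 cytosolic genes were higher. The median spot signal gave -0.0011 for Cars. Second brightest probes exist for 13 cytosolic and 6 mitochondrial members: 0 cytosolic genes were higher (9 lower, median -0.41) and 4 mitochondrial genes lower, among 2481 higher and 1780 lower of 6608 genes. Values then were 0.095 for Eprs, -0.41 for Hars, -0.090 for Lars, -0.087 for Tars and 0.23 for Iars2, and the difference of Iars and Iars2 was -0.78. With the mean of all kept probes, 1 cytosolic gene was higher, Cars was at -0.046 and Hars at -0.17, and the differences were 0.066 for Aars and Aars2 and -0.30 for Iars and Iars2. Leaving out each array in turn gave 1 to 2 higher cytosolic genes and a cytosolic median of -0.34 to -0.17. The ranges were -0.032 to 0.082 for Cars, -0.17 to 0.031 for Dars, -0.53 to 0.47 for Lars2, -0.43 to 0.57 for the difference of Lars and Lars2 and -0.074 to 0.040 for that of Rars and Rars2.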

Other observations

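Genes with more than 1 RefSeq mRNA probe gave a further comparison, between the most 5′ and the most 3′ kept probe. In the members these lay 584.5 (Vars) to 52062.5 (Eprs) genome bases apart. Their places within the message were not determined, so they need not lie at its ends. In 15 members with at least 2 kept RefSeq mRNA probes, the 5′ probe had the lower log2 ratio in 12 (80%), with a median difference, 5′ minus 3′, of -0.15. Across 4773 genes with such probes the 5′ probe was lower in 62.0%, with a median difference of -0.11. The largest negative differences were -0.36 in Dars and in Tars, followed by -0.33 in Iars and -0.31 in Wars2, and the largest positive ones were 0.40 in Cars2 and 0.24 in Lars. No test was made over genes.

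Of 9 kept probes to cDNA clones, 3 were called lower and 2 higher, where 29.1% of all kept probes were lower. The share of higher calls was taken over genes alone, at 37.5%. The median log2 level of these clone probes was 8.02, against 13.13 for the kept RefSeq mRNA probes of members.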
